A study of Homo sapiens and Mus musculus with 10 samples.

Results

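The inflammasome genes examined here were 10 named genes (CASP1, CASP4, PYCARD, NLRP3, NLRC4, AIM2, NLRP1, GSDMD, IL1B and IL18), taken as the rows of the expression tables with those symbols, whatever the letter case. All 10 were among the 27800 gene symbols of the human line MOLM-13, and 9 were among the 24493 symbols of the mouse line ER-Hoxa9. The mouse table held no Nlrp1 row, and its paralogs Nlrp1a and Nlrp1b were read in its place and kept apart from the 9. The genes were proposed with the WM-1119 against DMSO results of these libraries known, so their differences are described without a test of their own. MOLM-13 was derived from a person's acute myeloid leukaemia and carries an MLL fusion gene, and its 3 WM-1119 libraries came from cells given 4 µM for 4 days, beside 3 DMSO libraries. ER-Hoxa9 cells are mouse myeloid progenitors kept growing by a HOXA9 protein that estrogen switches on. All its cultures held stem cell factor and 0.5 µM β-estradiol, so the controls carried active HOXA9 too, and 2 libraries with 2 µM WM-1119 for 4 days stood beside 2 DMSO libraries. WM-1119 inhibits the histone acetyltransferase KAT6A, and the study asked how that inhibition alters transcription. The labels do not say whether replicates were separate cultures, so SDs and p-values measure only how far these libraries lie apart, part of which may be technical.

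An inflammasome is a cytosolic complex in which a sensor protein, on meeting a microbial product or cell damage, recruits the adaptor ASC (encoded by PYCARD) and through it procaspase-1. Active caspase-1 cuts the precursors of interleukin-1β and interleukin-18 and cuts gasdermin D, whose amino-terminal part forms pores in the plasma membrane and can kill the cell by pyroptosis. Caspase-4 in human, and its mouse counterpart encoded by Casp4, senses lipopolysaccharide directly and also cuts gasdermin D. Monocytes, macrophages and neutrophils hold many of these proteins ready, whereas IL1B is largely transcribed after a stimulus.

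Values are TPM, a length-corrected share of the transcripts in a library. TPM keep no read number, so the depth behind each value is unknown. Differences are WM-1119 minus DMSO on the log2(TPM + 1) scale with limma's SE, and near 1 TPM this scale makes a change look smaller than it is. The same-numbered MOLM-13 libraries deviated together from their group means, so MOLM-13 values are also given by pair. Between 11042 and 12416 genes reached 1 TPM in a library, and microRNA symbols took 7.53% to 22.0% of the TPM. Median-of-ratios scaling lowered the median difference of all genes in ER-Hoxa9 from 0.12 to -0.00 and in MOLM-13 from 0.05 to -0.01, so a difference in ER-Hoxa9 is read against 0.12. KAT6A itself was at 18.3 ± 4.63 TPM with DMSO and 18.4 ± 3.95 TPM with WM-1119 in MOLM-13 (SD, n = 3), and Kat6a at 15.4 ± 1.61 and 17.1 ± 0.653 TPM in ER-Hoxa9 (SD, n = 2).

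The 10 myeloid progenitor markers summed to between 1930 and 3663 TPM in every library of both lines, but different genes made up the sums. ELANE led in MOLM-13, at means of 1615 TPM with DMSO and 1773 TPM with WM-1119, and Mpo in ER-Hoxa9, at 882 and 1466 TPM. With DMSO, KIT averaged 0.281 TPM in MOLM-13 and Kit 216 TPM in ER-Hoxa9. CD34 was listed at 0 in all MOLM-13 libraries, and B cell and dendritic markers summed to at most 12.5 TPM in any library. Markers of other lineages were present as well. Mast cell and eosinophil markers, led by PRG2 in MOLM-13 and Cpa3 in ER-Hoxa9, summed to 73.1 to 301 TPM and 242 to 803 TPM over all libraries, with overlapping groups. T and NK markers, led by NKG7 in MOLM-13, reached 162 TPM there and 16.9 TPM in ER-Hoxa9. CD3E was at 0.0835 TPM or less in both, but CD3D was not. In MOLM-13 CD3D averaged 12.0 TPM with DMSO and 4.74 TPM with WM-1119, and in ER-Hoxa9 Cd3d averaged 7.06 and 5.42 TPM. Erythroid markers ranged from 0.116 to 208 TPM between MOLM-13 libraries. In MOLM-13 the 11 monocyte and macrophage markers found summed to 819 to 2191 TPM with DMSO and 2347 to 3553 TPM with WM-1119. Of the 11, 7 were higher in every pair, against 28.6% of all genes above the filter. LYZ, lysozyme, made up most of that sum, at a mean of 1347 TPM with DMSO and 2759 TPM with WM-1119. The 6 neutrophil markers summed to 91.7 to 131 TPM and 152 to 202 TPM. In ER-Hoxa9 the 12 monocyte markers in the table summed to 100.2 to 129 TPM with DMSO and 120 to 132 TPM with WM-1119. Ccr2 made up most of that sum, at a mean of 86.9 TPM with DMSO and 79.9 TPM with WM-1119. The sum therefore says little about the markers at lower levels. Lyz2 and Marco were listed at 0 throughout. Of the 12, 6 had both WM-1119 libraries above both DMSO libraries, against 40.3% of all genes above the filter. The 8 neutrophil markers summed to 14.4 to 14.7 TPM and 21.6 to 28.6 TPM, with Ly6g listed at 0, and the B cell markers to 1.82 to 4.43 TPM and 8.62 to 12.5 TPM, with Ms4a1 listed at 0. The progenitor markers summed to 1981 to 3184 TPM and 3629 to 3663 TPM, and 8 of the 10 had both WM-1119 libraries above both DMSO libraries. In bulk RNA, a shift in the number of cells of a type and a shift in RNA per cell cannot be told apart. The part of these marker shifts in the inflammasome values below was not tested.

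The start regions of 4 human genes are shown first, because 3 of them encode the sensors whose levels are compared between the lines below and the other encodes the cytokine IL1B. RefSeq promoter windows (GRCh38.p14, the 250 bases before a start) were at hand for 6 of the 10 genes. In those of CASP4 and PYCARD all bases lay in an exon of some GENCODE transcript of the gene, so only the bases of the other 4 that lie outside the gene's exons are printed, 5′ to 3′ on the gene's strand. The motifs searched on both strands were GAGGAAGT for PU.1, TTGCNNAA for C/EBP, GGGA and CC with any 4 bases between them for NF-kB, and GAAA and GAAA with any 2 bases between them for interferon response factors. Capitals mark a match. The 4 stretches are NLRC4 at chr2:32265855-32265993 (minus strand), IL1B at chr2:112836904-112837029 (minus), AIM2 at chr1:159076902-159077016 (minus) and NLRP3 at chr1:247415923-247416155 (plus). The AIM2 stretch lies within the annotated span of the gene, and the others lie upstream of it.
NLRC4: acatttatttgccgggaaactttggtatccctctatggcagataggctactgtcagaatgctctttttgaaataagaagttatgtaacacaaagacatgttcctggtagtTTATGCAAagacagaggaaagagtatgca
IL1B: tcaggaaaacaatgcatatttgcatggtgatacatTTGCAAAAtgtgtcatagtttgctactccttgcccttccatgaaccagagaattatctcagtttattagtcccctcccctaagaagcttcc
AIM2: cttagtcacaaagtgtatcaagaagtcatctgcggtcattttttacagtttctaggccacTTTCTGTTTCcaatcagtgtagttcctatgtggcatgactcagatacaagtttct
NLRP3: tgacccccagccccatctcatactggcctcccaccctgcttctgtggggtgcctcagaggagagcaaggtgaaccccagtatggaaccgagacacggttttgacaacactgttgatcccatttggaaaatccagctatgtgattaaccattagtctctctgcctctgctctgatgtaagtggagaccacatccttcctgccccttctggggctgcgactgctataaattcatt

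NLRC4 and IL1B each held 1 match to the C/EBP letters, TTATGCAA and TTGCAAAA, and AIM2 held 1 match to the interferon response letters, TTTCTGTTTC. Among all 35116 windows of 250 bases, 9.05% held the C/EBP letters, 3.02% the interferon letters, 22.6% the NF-kB letters and 2.17% the PU.1 letters. The printed stretches are shorter than these windows, so the shares are not theirs, and binding was not tested. No match lay in the NLRP3 stretch, which says only that these letters are absent from it. The stretches were poor in CpG, with 1 in NLRC4, 0 in IL1B, 1 in AIM2 and 3 in NLRP3. The full PYCARD window held 16 CpG at 71.2% G and C, against a median of 11 CpG and 58% over all windows.

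In MOLM-13 the adaptor gene was by far the most abundant of the 10, and the effector caspases, the NLRP3 sensor and gasdermin D lay together far below it. With WM-1119, CASP1 was 1.32 times and NLRC4 2.02 times its DMSO mean, while CASP4 was at 1.00 times, and CASP1, NLRC4, NLRP1, PYCARD and IL1B were higher than DMSO in every pair. Across all genes above the filter 28.6% were higher in every pair, and 5 of the 10 inflammasome genes were. The genes had been chosen with this contrast known, so nothing is read from that count. No gene of the 10 had all WM-1119 libraries above all DMSO libraries, against 4.54% of all genes. Under median-of-ratios scaling 1 gene, CASP1, did, against 4.52% of all genes. Single libraries set that count. Without DMSO replicate 1, 2 genes were free of overlap (CASP1 higher, IL18 lower), and without DMSO replicate 2, 2 were (NLRC4 and NLRP1). Without WM-1119 replicate 1 (NLRC4), 2 (GSDMD) or 3 (CASP1), 1 gene was. Leaving out a library cannot create overlap. The share of all genes was not counted with 1 library left out, so nothing is read from these counts.

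**Figure D1:**
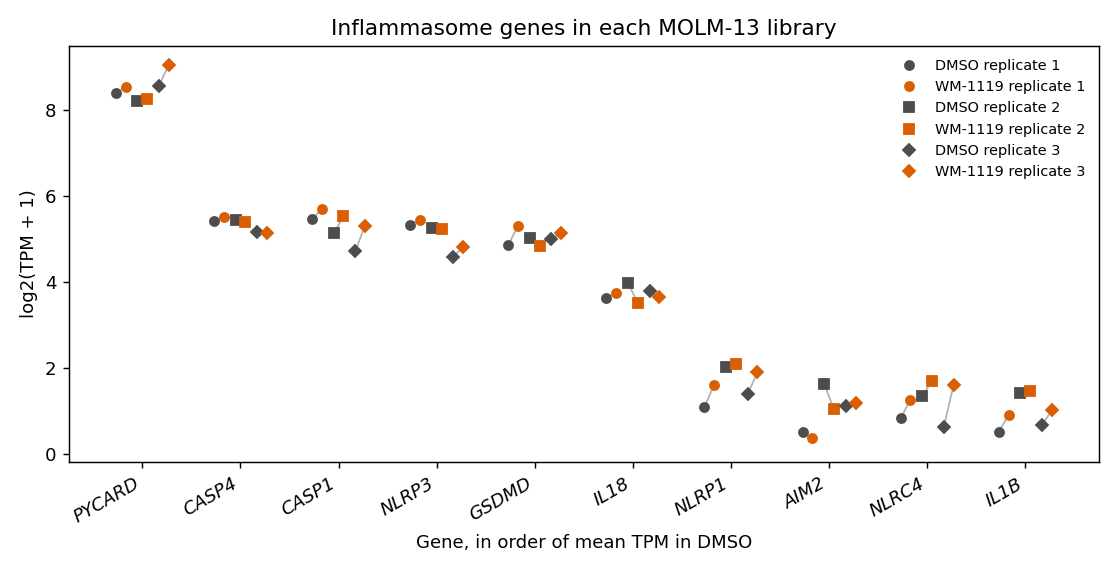
log2(TPM + 1) of the 10 inflammasome genes in each MOLM-13 library, in order of mean TPM with DMSO. Grey points are DMSO and orange points WM-1119, shapes mark the replicate number and lines join same-numbered libraries. The lines of CASP1, NLRC4, NLRP1, PYCARD and IL1B go up in all 3 pairs, and those of CASP4, GSDMD, NLRP3, IL18 and AIM2 do not.

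PYCARD, the ASC adaptor (GRCh38 chromosome 16, 31201485 to 31203450, minus strand, GENCODE 29), was at 336, 296 and 381 TPM in its DMSO libraries and at 374, 308 and 535 TPM in the WM-1119 libraries of replicates 1 to 3. Each WM-1119 library lay above its partner, but the groups overlapped, and the replicate 3 pair gave the greatest step. Means were 338 ± 42.1 and 405 ± 117 TPM (SD, n = 3). The log2 difference was 0.23 ± 0.24 (SE), or 0.23 ± 0.10 with the pairing in the fit. It was 0.01 without WM-1119 replicate 3 and with its DMSO partner kept. An antisense gene, PYCARD-AS1, overlaps PYCARD and was at 4.56 ± 0.475 TPM with DMSO and 3.29 ± 0.640 TPM with WM-1119. The strand setting of the libraries is not given in the sources used here, so reads of the overlap cannot be told apart.

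CASP1, the caspase that inflammasomes activate (chromosome 11, 105025443 to 105035250, minus strand), was at 43.0, 34.1 and 25.4 TPM with DMSO and 51.2, 45.2 and 38.6 TPM with WM-1119. The spread between replicate numbers was as wide as the step with WM-1119, so the groups overlapped although each pair differed in the same direction. By pair the log2 differences were 0.25, 0.40 and 0.59, and the means were 34.1 ± 8.80 and 45.0 ± 6.27 TPM (SD, n = 3), a difference of 0.41 ± 0.24 (SE), or 0.41 ± 0.09 with the pairing in the fit. Without DMSO replicate 3, the lowest library, the difference was 0.22. CASP4, the lipopolysaccharide-sensing caspase encoded nearby on the same strand (104942866 to 104969436), was at 41.8, 42.8 and 34.7 TPM with DMSO and 44.6, 41.0 and 34.0 TPM with WM-1119. Its means were 39.8 ± 4.43 and 39.9 ± 5.39 TPM (SD, n = 3), a difference of 0.00 ± 0.19 (SE), with 1 pair higher and 2 lower. Within each library the TPM ratio of CASP1 to CASP4, which no library-wide scaling can alter, was 1.03, 0.796 and 0.732 in DMSO and 1.15, 1.10 and 1.14 in WM-1119. Those groups did not overlap, although DMSO replicate 1 lay closer to the WM-1119 values than to the other DMSO libraries.

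CASP1 shares sequence with its neighbours. Of the 2965 distinct stretches of 31 bases in its coding transcripts, 11.9% also occur in another gene's transcripts, most of them (10.2% of all) in CARD16, which encodes a CARD-only regulator of caspase-1. CARD16 was at 12.3 ± 0.831 TPM with DMSO and 13.9 ± 1.32 TPM with WM-1119 (SD, n = 3), so some reads could be split between the genes in either direction. CASP5, between CASP4 and CASP1, averaged 0 TPM with DMSO and 0.0493 TPM with WM-1119, and CARD17 and CARD18 were listed at 0. The shared part was 2.76% for CASP4 and 7.197% for IL18, and it was 0% for PYCARD, NLRC4, AIM2 and IL1B.

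Of the 4 sensors among the 10 genes, NLRP3 was the only one at more than a few TPM in MOLM-13. NLRP3, which responds to ion efflux and membrane damage (chromosome 1, 247416156 to 247449108, plus strand), was at 39.4, 37.3 and 23.1 TPM with DMSO and 42.9, 36.4 and 27.3 TPM with WM-1119. The replicate 3 libraries were the lowest of each group, and the means of 33.2 ± 8.84 and 35.5 ± 7.82 TPM (SD, n = 3) differed by 0.10 ± 0.27 (SE). The difference was -0.13 without DMSO replicate 3 and -0.04 without WM-1119 replicate 1, so it had no stable direction. NLRC4, which pairs with NAIP proteins to detect flagellin and bacterial secretion needles (chromosome 2, 32224453 to 32265854), was at 0.764, 1.51 and 0.535 TPM with DMSO and 1.39, 2.25 and 2.04 TPM with WM-1119. Each pair was higher with WM-1119, by 0.44, 0.37 and 0.98, and only DMSO replicate 2 overlapped the WM-1119 group. Means were 0.937 ± 0.512 and 1.89 ± 0.447 TPM (SD, n = 3), a difference of 0.60 ± 0.27 (SE) at a level near the filter.

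NLRP1, a sensor held in check by DPP8 and DPP9 (chromosome 17, 5499427 to 5619424), was at 1.12, 3.02 and 1.60 TPM with DMSO and 2.04, 3.28 and 2.71 TPM with WM-1119. The groups overlapped through DMSO replicate 2, and the difference was 0.38 ± 0.29 (SE), or 0.17 without DMSO replicate 1. AIM2, a receptor for cytosolic double-stranded DNA (chromosome 1, 159062484 to 159147096), was at 0.411, 2.08 and 1.14 TPM with DMSO and 0.278, 1.04 and 1.25 TPM with WM-1119. It was lower with WM-1119 in 2 pairs and higher in 1, with a difference of -0.22 ± 0.37 (SE). That direction rested on WM-1119 replicate 1, without which the difference was 0.03, and it was -0.51 without DMSO replicate 1.

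In the main fit, which leaves out the pairing, the genes of the caspase substrates in MOLM-13 differed from DMSO by less than their SEs. With the pairing in the fit the SEs of GSDMD, IL18 and IL1B were 0.13, 0.12 and 0.19. Each was then below the size of the gene's difference, for GSDMD only just. GSDMD, the pore-forming gasdermin (chromosome 8, 143553207 to 143563062, plus strand), was at 28.0, 31.3 and 31.2 TPM with DMSO and 38.8, 27.8 and 34.0 TPM with WM-1119, a difference of 0.14 ± 0.19 (SE), or 0.03 without WM-1119 replicate 1. The WM-1119 libraries lay on both sides of the DMSO group. IL18 (chromosome 11, 112143251 to 112164117), a precursor that many myeloid and epithelial cells hold without stimulation, was at 11.4, 14.7 and 12.8 TPM with DMSO and 12.4, 10.4 and 11.5 TPM with WM-1119, a difference of -0.16 ± 0.17 (SE), with 2 pairs lower. IL1B (chromosome 2, 112829751 to 112836903), the fever-inducing cytokine, was at 0.422, 1.65 and 0.574 TPM with DMSO and 0.860, 1.75 and 1.01 TPM with WM-1119. It was higher in each pair, but the difference of 0.27 ± 0.32 (SE) was smaller than its error in the main fit. The groups overlapped, and the difference was 0.09 without DMSO replicate 1. IL18 thus lay far above IL1B in all MOLM-13 libraries.

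The order of levels in MOLM-13 DMSO libraries was PYCARD, CASP4, CASP1, NLRP3, GSDMD, IL18, NLRP1, AIM2, NLRC4 and IL1B. PYCARD stood apart from CASP4, GSDMD from IL18 and IL18 from NLRP1, while each other pair of neighbours overlapped. In WM-1119 CASP1 stood second and AIM2 last, and the same 3 gaps separated the order. All 10 genes passed the filter of a mean of 1 TPM, but NLRC4 and IL1B were above 1 TPM only in the WM-1119 mean and AIM2 only in the DMSO mean. The median difference of the 10 was 0.18, against 0.05 for all 12436 genes, and 8 of the 10 differences were above 0, against 61.5% of all genes. CASP4 was one of the 8, and turned to -0.07 under median-of-ratios scaling and to -0.01 with microRNA symbols removed. With the pairing in the fit the SEs were 0.20 for NLRC4, 0.15 for NLRP1, 0.08 for NLRP3, 0.22 for AIM2 and 0.07 for CASP4.

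In ER-Hoxa9, Casp1 had the greatest difference of the 7 inflammasome genes above the filter: its WM-1119 mean was 2.39 times its DMSO mean, with the DMSO libraries close together. Nlrc4 was at 2.11 times, Pycard, Nlrp3, Casp4, Gsdmd and Aim2 at 1.37 to 1.52 times. All 7 genes above the filter had both WM-1119 libraries above both DMSO libraries, as did 40.3% of all genes. Under median-of-ratios scaling all 7 still did, against 22.4% of all genes. With 2 libraries a group and genes chosen on this contrast, nothing is read from that count.

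**Figure D2:**
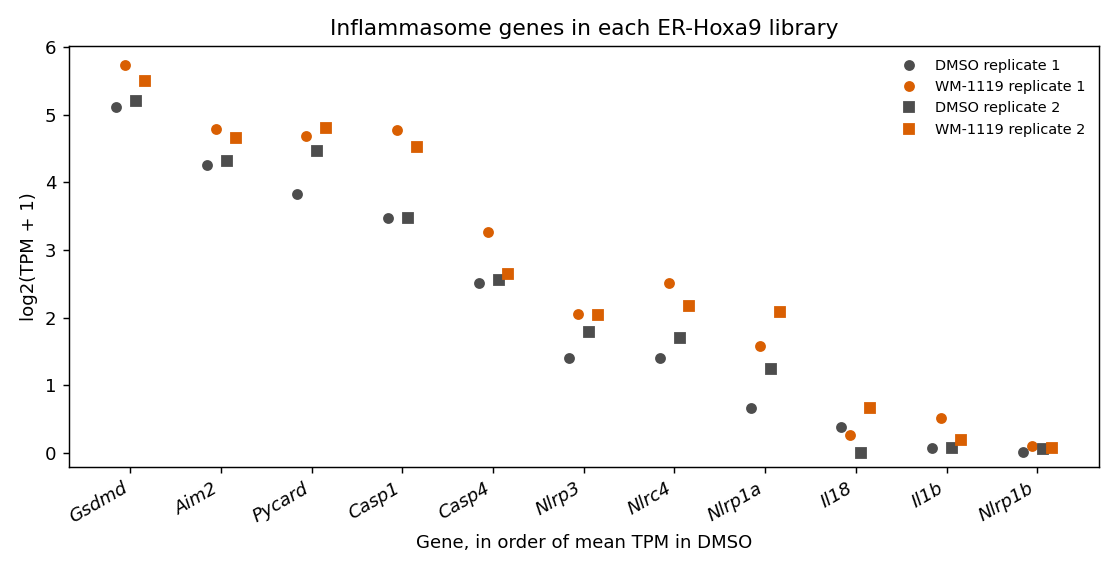
log2(TPM + 1) of 9 inflammasome genes and the paralogs Nlrp1a and Nlrp1b in each ER-Hoxa9 library, in order of mean TPM with DMSO. Grey points are DMSO, orange points WM-1119, and shapes mark the replicate number. Casp1 shows the widest gap between the groups, from 10.1 TPM in both DMSO libraries to 26.3 and 22.0 TPM with WM-1119.

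Casp1 was at 10.1 and 10.1 TPM in its DMSO libraries and at 26.3 and 22.0 TPM in the WM-1119 libraries. The gap between groups was several times the distance between the WM-1119 libraries, with means of 10.1 ± 0.0550 and 24.2 ± 3.02 TPM (SD, n = 2) and a difference of 1.18 ± 0.14 (SE). That difference was greater than those of 98.7% of the 11362 genes above the filter, and 144 genes had a greater one. Casp4, which encodes the mouse lipopolysaccharide-sensing caspase also called caspase-11, was at 4.69 and 4.88 TPM with DMSO and 8.62 and 5.27 TPM with WM-1119. Its difference of 0.43 ± 0.24 (SE) rested mainly on WM-1119 replicate 1, and was 0.12 without it. The Casp1 to Casp4 ratio within a library was 2.15 and 2.08 in DMSO and 3.05 and 4.18 in WM-1119, so Casp1 was higher relative to Casp4 in ER-Hoxa9, as CASP1 was to CASP4 in MOLM-13.

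Pycard was at 13.1 and 21.0 TPM with DMSO and 24.7 and 26.9 TPM with WM-1119. The DMSO libraries were further apart than the WM-1119 libraries, and the difference of 0.60 ± 0.23 (SE) was 0.28 without DMSO replicate 1. The adaptor was therefore not at the head of the order in this line, in contrast to its place in MOLM-13. Gsdmd took that place, at 33.7 and 35.6 TPM with DMSO and 52.0 and 44.3 TPM with WM-1119, a difference of 0.46 ± 0.13 (SE). The ratio of Casp1 to Gsdmd within a library was 0.299 and 0.285 in DMSO and 0.506 and 0.498 in WM-1119. In MOLM-13 that ratio was 1.54, 1.09 and 0.813 in DMSO and 1.32, 1.63 and 1.14 in WM-1119, and there the groups overlapped.

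Aim2 was the most abundant of the inflammasome genes that encode sensors in ER-Hoxa9, at 18.1 and 18.9 TPM with DMSO and 26.6 and 24.1 TPM with WM-1119, a difference of 0.43 ± 0.12 (SE). Nlrc4 was at 1.64 and 2.25 TPM with DMSO and 4.73 and 3.49 TPM with WM-1119, a difference of 0.79 ± 0.22 (SE). Nlrp3 was at 1.66 and 2.46 TPM with DMSO and 3.14 and 3.13 TPM with WM-1119, a difference of 0.45 ± 0.21 (SE) that was 0.26 without DMSO replicate 1. Among the sensors of the 10 genes the most abundant thus differed between the lines, NLRP3 in MOLM-13 and Aim2 in ER-Hoxa9. The paralog Nlrp1a was at 0.592 and 1.38 TPM with DMSO and 1.98 and 3.26 TPM with WM-1119, and it passed the filter only through its WM-1119 values. Nlrp1b was at 0.0759 TPM or less in every library.

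The cytokine precursors were close to absent from the ER-Hoxa9 tables. Il1b was at 0.0491 and 0.0548 TPM with DMSO and 0.436 and 0.138 TPM with WM-1119, and Il18 at 0.303 and 0 TPM with DMSO and 0.201 and 0.581 TPM with WM-1119. Both were below the filter and were not fitted. Il1b was higher in both WM-1119 libraries, but at levels where a few reads could set the value, and the Il18 groups overlapped. ER-Hoxa9 thus listed sensor, adaptor, caspase and gasdermin transcripts with hardly any of the cytokine transcripts, whereas MOLM-13 listed IL18 at 10.4 to 14.7 TPM.

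In DMSO the order in ER-Hoxa9 was Gsdmd, Aim2, Pycard, Casp1, Casp4, Nlrp3, Nlrc4, Nlrp1a, Il18, Il1b and Nlrp1b. The ranges of Aim2 and Pycard, of Nlrp3 and Nlrc4 and of Il18 and Il1b overlapped. In WM-1119 Pycard, Aim2 and Casp1 overlapped as neighbours behind Gsdmd, so the step in Casp1 brought it level with its adaptor. The median difference of the 7 fitted genes was 0.46, against 0.12 for all 11362 genes, and 71.9% of all genes had a difference above 0.

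**Figure D3:**
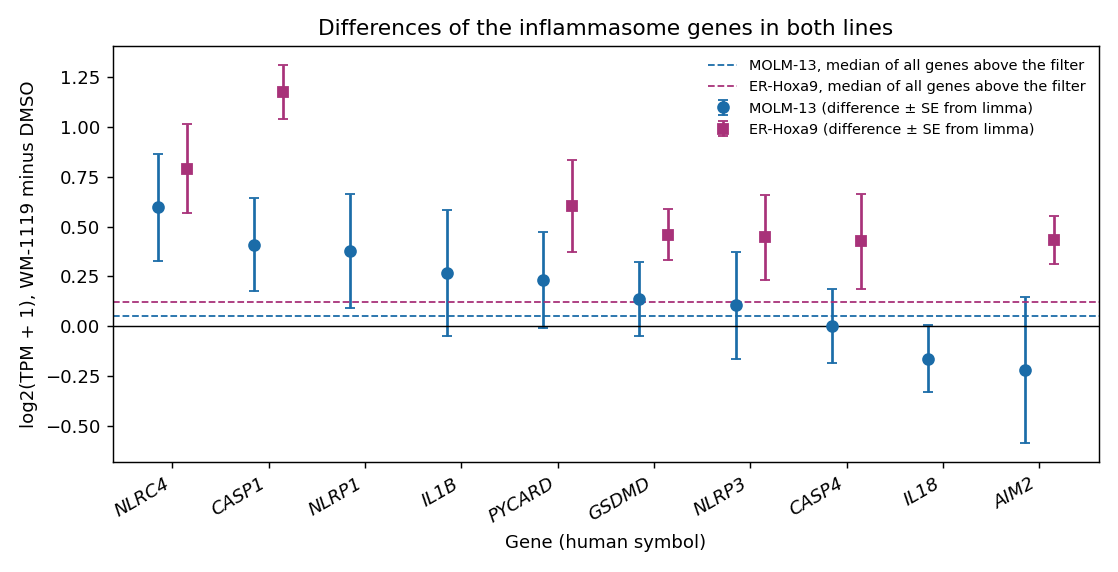
Difference in log2(TPM + 1), WM-1119 minus DMSO, of each inflammasome gene above the filter in MOLM-13 (blue circles) and ER-Hoxa9 (purple squares), with the SE from limma. Dashed lines mark the median of all genes above the filter in each line, 0.05 and 0.12. The ER-Hoxa9 values run from 0.43 to 1.18 and the MOLM-13 values from -0.22 to 0.60, and CASP1 and NLRC4 lie at the upper end in both.

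Side by side, 7 genes had human and mouse rows above the filter, and all 7 had both ER-Hoxa9 WM-1119 libraries above DMSO. Of these, CASP1, NLRC4 and PYCARD were also higher in every MOLM-13 pair. Of all genes, 28.6% were higher in every MOLM-13 pair and 40.3% had both ER-Hoxa9 WM-1119 libraries above DMSO. The share doing both was not counted, and nothing is read from genes chosen on this contrast. The differences of CASP1, NLRC4 and PYCARD were 0.41, 0.60 and 0.23 in MOLM-13 and 1.18, 0.79 and 0.60 in ER-Hoxa9. AIM2 was at -0.22 in MOLM-13 and 0.43 in ER-Hoxa9, with the MOLM-13 pairs split and its direction there resting on 1 library. The PYCARD differences of MOLM-13 by pair were 0.15, 0.05 and 0.49, so the size of the mean leaned on the replicate 3 pair. The lines differ in species, dose and table, and the difference between them was not tested.

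The genes whose pattern over the libraries lay closest to CASP1 were found by the mean absolute distance of log2(TPM + 1), each gene centred on its own mean. Over the 6 MOLM-13 libraries, out of 9016 genes averaging 5 TPM or more, these were DCK, AP5B1, TMEM164, EFHD2 and DEPDC5, at distances of 0.03 to 0.04. The closest other inflammasome gene was NLRP3, at 0.15. Over the 4 ER-Hoxa9 libraries, out of 8783 genes, they were Oas1a, Trp53inp2, Tmem176a, Itgb2 and Plxnc1, at 0.03 to 0.09, and the closest inflammasome gene was Nlrc4, at 0.19. The 2 lists had no gene in common, and with so few libraries many genes lie near any pattern.

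Other genes of the pathway were taken from 5 lists of 59 symbols in all: further sensors, regulators of sensors and adaptor, other caspases, other gasdermins with the membrane rupture protein NINJ1, and interleukin-1 family members with their antagonists and receptors. In MOLM-13 51 were in the table and 29 above the filter, of which 25 had positive differences, where 61.5% of all genes had, with a median of 0.15. None passed an adjusted p of 0.05 by limma with Benjamini-Hochberg adjustment over all genes (lowest adjusted p = 0.999985), and 0.00804% of all genes did. At an unadjusted p under 0.05, 3 were higher, against 2.08% of all genes, and IFI16 was lower. The same 3 genes (NAIP, PSTPIP1 and IL18BP) had all WM-1119 libraries above DMSO, where 4.54% of all genes had, and 1 had all below. In ER-Hoxa9 45 were in the table and 22 above the filter, 19 with positive differences, where 71.9% of all genes had, and a median of 0.20. None passed (limma, lowest adjusted p = 0.312), and 0.0352% of all genes did. At an unadjusted p under 0.05, 7 were higher, against 11.6% of all genes. In 12 of the 22 both WM-1119 libraries were above DMSO and in 0 below, where 40.3% of all genes were above (22.4% under median-of-ratios scaling). Nlrp1a is one of these 22 as well, and is counted in the 19, the 7 and the 12. It passed the filter only through its WM-1119 values, so its direction was fixed.

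**Figure D4:**
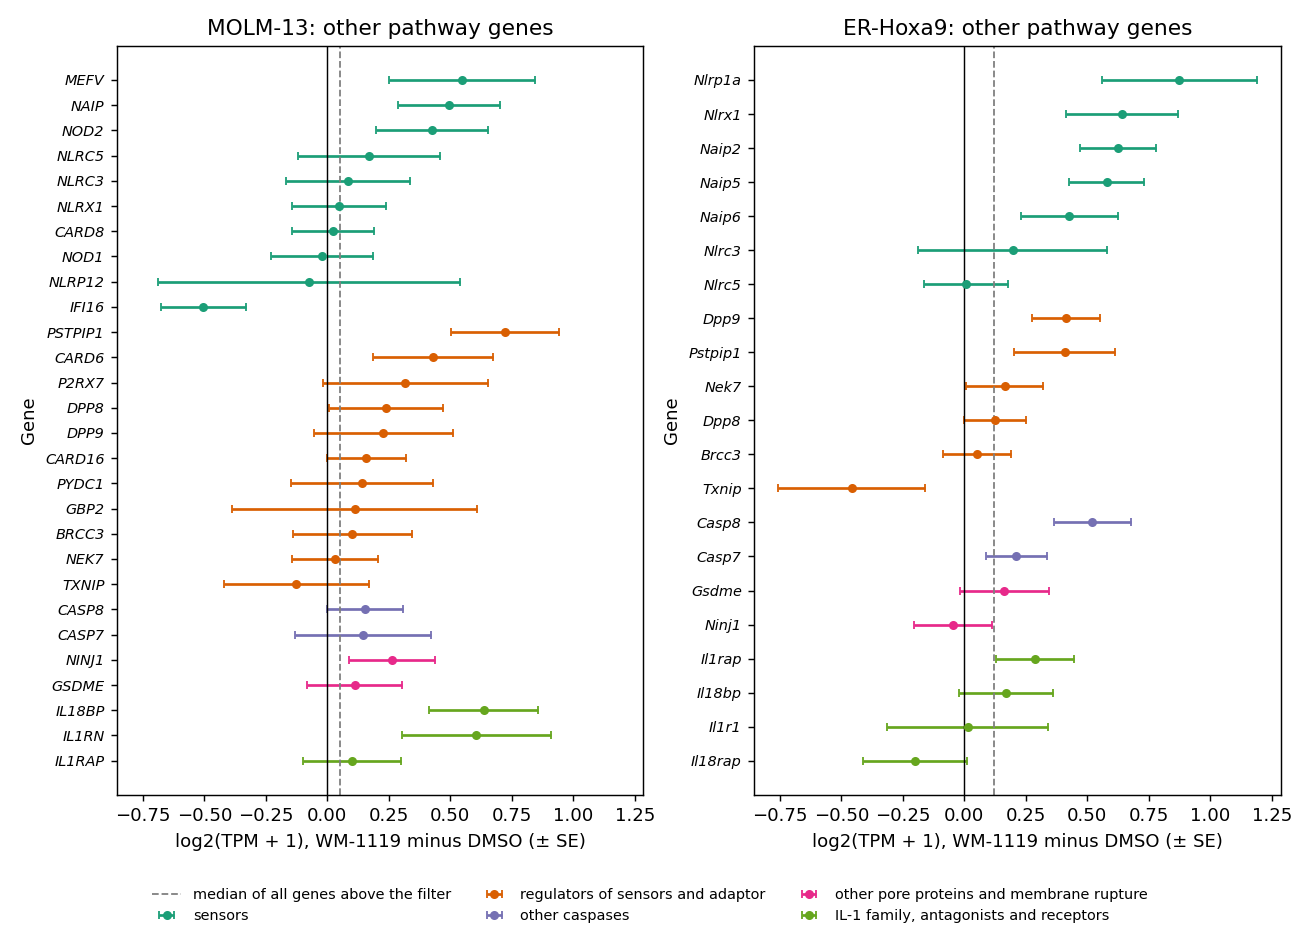
Difference in log2(TPM + 1), WM-1119 minus DMSO, with the SE from limma, of the other pathway genes above the filter in MOLM-13 (left) and ER-Hoxa9 (right), coloured by list, with 1 gene not drawn. The dashed line marks the median of all genes above the filter, 0.05 in MOLM-13 and 0.12 in ER-Hoxa9. PSTPIP1 lies highest in MOLM-13 at 0.72 and IFI16 lowest at -0.50.

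The examples here were picked after their values were seen, apart from the most abundant gene of 4 of the lists. Among sensors, 7 of 10 in MOLM-13 and 7 of 7 in ER-Hoxa9 had positive differences, with medians of 0.07 and 0.58. The MOLM-13 share was near that of all genes. The 7 in ER-Hoxa9 include Nlrp1a, whose direction was fixed because it passed the filter only through its WM-1119 values. CARD8, a sensor related to NLRP1 and the most abundant of that list in MOLM-13, was at 53.1, 55.8 and 47.2 TPM with DMSO and 56.2, 52.4 and 50.02 TPM with WM-1119, so its groups overlapped. Nlrc5, a regulator of MHC class I genes and the most abundant of that list in ER-Hoxa9, was at 20.2 and 15.1 TPM with DMSO and 18.5 and 16.8 TPM with WM-1119. The NAIP proteins bind bacterial ligands and then NLRC4, and human NAIP was at 9.42, 7.85 and 5.83 TPM with DMSO and 12.5, 11.2 and 9.69 TPM with WM-1119, without overlap. The mouse genes Naip2, Naip5 and Naip6 were also higher in both WM-1119 libraries, with differences of 0.63, 0.58 and 0.43, but they are close paralogs whose reads could be split among them. IFI16, a nuclear DNA sensor related to AIM2, was the 1 listed gene above the filter with all MOLM-13 WM-1119 libraries below DMSO. It was at 5.50, 7.19 and 7.47 TPM with DMSO and 4.49, 4.43 and 4.31 TPM with WM-1119. The share of all genes lying below in this way was not counted.

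Of the regulators, 10 of 11 in MOLM-13 and 5 of 6 in ER-Hoxa9 had positive differences. TXNIP, a thioredoxin inhibitor linked to NLRP3 and the most abundant in both, was the exception in each line, at -0.13 ± 0.29 and -0.46 ± 0.30 (SE). PSTPIP1, a partner of pyrin, was at 5.68, 10.1 and 6.56 TPM with DMSO and 12.1, 13.1 and 12.7 TPM with WM-1119 in MOLM-13, and did not overlap there or in ER-Hoxa9. All 3 other caspases above the filter had positive differences in each line. NINJ1, which ruptures the membrane after the pores form, was at 0.27 ± 0.17 in MOLM-13 and -0.05 ± 0.16 in ER-Hoxa9 (SE).

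Of the interleukin-1 family and receptors, 3 of 3 above the filter in MOLM-13 and 3 of 4 in ER-Hoxa9 had positive differences. IL18BP, the soluble antagonist of interleukin-18, was at 2.56, 2.98 and 1.71 TPM with DMSO and 4.10, 5.15 and 3.59 TPM with WM-1119 in MOLM-13, without overlap, while IL18 itself differed by -0.16. IL1RN, the antagonist of the interleukin-1 receptor, was at 14.0, 17.4 and 7.85 TPM with DMSO and 20.3, 23.7 and 15.3 TPM with WM-1119, higher in each pair with overlapping groups. IL1RAP, the shared receptor chain and the most abundant of the list in MOLM-13, differed by 0.10 ± 0.20 (SE). Il18rap, the interleukin-18 receptor chain that leads the list in ER-Hoxa9, was at 12.9 and 17.9 TPM with DMSO and 14.9 and 11.5 TPM with WM-1119.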

How the data were processed

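RNA-seq of 10 libraries was used, and 1 table per line was read. The authors deposited TPM per gene symbol, estimated with Salmon on the builds hg38 and mm10, as named in the submitters' processing notes. Salmon's version and annotation were not given in the sources used here. Groups were read from titles, with 0 columns unassigned. Headers of the mouse table read LysHoxa9 in place of ER-Hoxa9, and were matched as those of the only mouse line.

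Genes averaging 1 TPM or more in a line entered a limma 3.58.1 fit of log2(TPM + 1) (eBayes with trend) in R 4.3.3, two-sided, with Benjamini-Hochberg adjustment over all genes and a threshold of 0.05; the fit was tested on simulated data. Members and gene lists were chosen with earlier results of these data known. Named were all members, pathway genes that passed or else the most abundant of each list (1 is not reported here), and the 5 genes nearest CASP1. Same-numbered MOLM-13 libraries deviated together (correlations across genes of 0.52, 0.44 and 0.61), so the numbers were taken to pair them, though the main fit has no block. Alternatives were a pseudocount of 0.1, filters of 0 and 5 TPM, median-of-ratios scaling, removal of microRNA symbols, the block, no trend and leaving out each library. Positions are from GENCODE 29 (GRCh38). Figures used matplotlib 3.10.9.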

Additional observations from a re-analysis of the deposited data

How the results depend on the processing

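In ER-Hoxa9 all 7 fitted inflammasome genes had WM-1119 on 1 side of DMSO. The count was 8 of 9 without a filter, 5 of 5 with the filter of 5 TPM, and 7 under the other alternatives. Only median-of-ratios scaling and removal of microRNA symbols could have changed this for a gene. The filters change only which genes are counted. The pseudocount, the block and the trend keep the order of TPM, and leaving out a library cannot create overlap. In MOLM-13 the count was 0, and 1 (CASP1) under median-of-ratios scaling, with or without the replicate block. It was 0 to 2 when 1 library was left out, where the share of all genes was not counted. The number higher in every MOLM-13 pair was 5 under median-of-ratios scaling, against 19.6% of all genes. It was 5 with microRNA symbols removed, against 25.0% of all genes, and 5 to 7 when 1 pair was left out. These settings were added after seeing the data. Leaving out a pair cannot lower this number, and 33.5% to 42.6% of all genes were then higher in every remaining pair. The count of all genes called in MOLM-13 was 1. It was 0 without a filter, 0 with the replicate block (also with median-of-ratios scaling), 2 without the eBayes trend and 0 to 6 when 1 library was left out (5, 6 and 3 without DMSO replicates 1, 2 and 3, and 3, 0 and 2 without WM-1119 replicates 1, 2 and 3). In ER-Hoxa9 it was 4. It was 0 with a pseudocount of 0.1, without a filter, with the filter of 5 TPM and with the replicate block (also with median-of-ratios scaling), 1 with microRNA symbols removed, 16 without the trend, and 0 when any 1 library was left out; an arm of 1 library is then assumed to vary like the other. The cause was not tested. The block changed no call of a pathway gene. The ER-Hoxa9 numbers share only a number, with a correlation of deviations of 0.21. NLRC4 was most sensitive to the pseudocount, at 1.02 in MOLM-13 and 1.04 in ER-Hoxa9 with 0.1. Depth is unknown, so no detection limit can be given.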
